A study of Rattus norvegicus with 18 samples.

Results

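Expression of 8 genes that mark basophils and mast cells was followed in rat blood on 18 Agilent 2-colour arrays. The members were Fcer1a, Ms4a2, Il1rl1, Gata2, Hdc, Cpa3, Cma1 and Tpsab1, and their probes were found by matching the RefSeq accession on each probe to the gene symbol. They were represented by 10 probes of the 26446 tested, or 8 of 13616 named genes, and all 10 probes lay well above background in Cy5 on all 18 arrays. Fcer1a and Il1rl1 had 2 probes each, and every gene was read on its brightest probe unless another is named.

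The study compared rat strains for what procainamide does to their blood cells, the drug being an antiarrhythmic known for inducing a lupus-like autoimmunity. There were 4 arrays of male Brown Norway (BN) rats given procainamide at 40 mg/kg, 4 of male BN rats given sterile water (controls), 5 of male Sprague Dawley (SD) rats given procainamide at 40 mg/kg and 5 of male SD rats given sterile water. BN is an inbred strain and SD an outbred one. Age and length of treatment are not given in the sources used here, and blood was drawn from an eye vein once treatment ended. Cy5 carried the sample and Cy3, by the labels, the RNA of control replicate 1 of the same strain. Nothing in the labels ties an array to an animal of its own, so the p-values rest on a spread among samples that may be technical.

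Basophils are rare granulocytes of the blood, and mast cells complete their maturation in tissues from circulating progenitors. Both carry the high-affinity IgE receptor, whose alpha chain (Fcer1a) binds IgE and whose beta chain (Ms4a2) amplifies the signal, and crosslinking of bound IgE releases histamine, proteases and lipid mediators. Hdc encodes histidine decarboxylase, the enzyme that makes histamine. Cpa3 (carboxypeptidase A3), Cma1 (mast cell chymase) and Tpsab1 (a tryptase) are granule proteases, Il1rl1 encodes ST2, the receptor of interleukin 33, and Gata2 is a transcription factor needed for both lineages. BN rats are known as a strain prone to IgE and type 2 immune responses.

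Since Gata2 is a member and other members moved together from array to array, the RefSeq promoters (GRCr8, 250 bases before and 50 after the annotated start) were searched for 4 words of 6 letters that GATA factors are known to recognise, on both strands. The words were AGATAA with its variant AGATAG, which begin with A, and TGATAA with its variant TGATAG, which begin with T. Promoters of 7 members were matched by symbol, and Ms4a2 is named only. Of 33469 rat promoters of that length, 30.3% held at least 1 such word and 7.94% held 2 or more. Shown here are the members with an entry that passed a test in a comparison, each from 5′ to 3′ along the gene, with matching words in capitals. Fcer1a lies at chr13:88224630-88224929 (minus strand), Hdc at chr3:134318655-134318954 (minus strand), Cpa3 at chr2:104673188-104673487 (minus strand), Cma1 at chr15:33390084-33390383 (minus strand) and Tpsab1 at chr10:14867253-14867552 (minus strand).
Fcer1a: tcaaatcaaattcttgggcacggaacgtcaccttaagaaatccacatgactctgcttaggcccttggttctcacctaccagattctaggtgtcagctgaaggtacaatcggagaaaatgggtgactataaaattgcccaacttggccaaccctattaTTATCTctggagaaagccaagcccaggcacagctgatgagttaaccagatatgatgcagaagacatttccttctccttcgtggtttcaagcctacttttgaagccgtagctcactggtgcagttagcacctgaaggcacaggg
Hdc: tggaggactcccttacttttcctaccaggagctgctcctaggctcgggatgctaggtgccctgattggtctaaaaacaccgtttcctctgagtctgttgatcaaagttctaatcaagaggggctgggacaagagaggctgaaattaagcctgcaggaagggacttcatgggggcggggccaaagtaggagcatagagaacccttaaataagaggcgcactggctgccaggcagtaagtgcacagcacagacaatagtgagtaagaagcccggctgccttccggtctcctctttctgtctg
Cpa3: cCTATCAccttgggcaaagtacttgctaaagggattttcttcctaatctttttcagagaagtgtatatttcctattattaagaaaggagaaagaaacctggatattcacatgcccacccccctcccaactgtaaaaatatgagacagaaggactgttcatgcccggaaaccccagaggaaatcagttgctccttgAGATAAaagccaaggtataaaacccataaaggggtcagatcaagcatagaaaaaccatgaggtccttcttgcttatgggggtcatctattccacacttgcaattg
Cma1: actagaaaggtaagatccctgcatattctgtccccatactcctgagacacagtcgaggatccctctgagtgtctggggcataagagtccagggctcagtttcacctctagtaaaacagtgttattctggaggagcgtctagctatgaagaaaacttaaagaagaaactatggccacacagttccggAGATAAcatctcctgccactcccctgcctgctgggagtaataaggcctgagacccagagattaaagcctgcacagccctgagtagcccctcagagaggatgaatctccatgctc
Tpsab1: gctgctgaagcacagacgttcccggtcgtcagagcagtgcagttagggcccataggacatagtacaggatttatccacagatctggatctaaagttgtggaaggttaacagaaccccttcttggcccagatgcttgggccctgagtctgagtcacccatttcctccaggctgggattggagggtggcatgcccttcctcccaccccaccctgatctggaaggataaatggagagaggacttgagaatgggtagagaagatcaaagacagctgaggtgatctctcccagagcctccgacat
Cpa3 held 2 words, with TGATAG on the strand opposite to the gene at -249 and AGATAA on its own strand at -55. Cma1 held AGATAA on its own strand at -64, and Fcer1a held AGATAA on the opposite strand at -93, each position being that of the first capital in the printed line, and words on the opposite strand appear as their reverse complement. The windows of Hdc, Il1rl1, Gata2 and Tpsab1 held none of these letters, which says nothing of binding elsewhere.

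Over the 18 arrays the median Cy5 spot signal ran from 997 to 3187 and the share of probes well above background from 73.4% to 87.1%, with 0 saturated spots. Slide and group were not crossed in full, per the file headers: slide 3 held the 4 BN procainamide arrays, slide 2 the 4 BN control arrays and SD procainamide 4 and 5, and slide 1 the 5 SD control arrays and SD procainamide 1 to 3. Slide 2 was scanned on another day than slides 1 and 3. No slide held both groups of the BN response or of either strain comparison, so within slides group and slide cannot be told apart there. In bulk blood fewer cells of a type and less RNA per cell cannot be told apart either.

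The reference channel did not match its label for several members. On BN control 1, which by label compares an RNA with itself, the log2 ratio of Cy5 over Cy3 was -1.67 for Cpa3, -1.26 for Cma1, -0.70 for Il1rl1, -0.64 for Fcer1a and -0.53 for Ms4a2. The Cpa3 level in Cy3 averaged 10.36 ± 0.13 (SD over the 8 BN arrays, log2), against 8.60 in Cy5 of BN control 1. On SD control 1 the Cpa3 ratio was -0.67 and the Cma1 ratio -0.40. Whether the Cy3 RNA was that of control 1 was not tested further. The Cy3 level of Cpa3 had an SD of 0.13 over the BN arrays and 0.07 over the 10 SD arrays. For some members Cy3 still differed between the groups of a strain. On BN control and BN procainamide arrays it averaged 10.25 and 10.46 for Cpa3 and 12.56 and 12.83 for Cma1, without overlap. On SD control and SD procainamide arrays it averaged 8.40 and 8.69 for Tpsab1, without overlap, but 8.02 and 8.01 for Cpa3. The reason for these shifts was not tested.

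In BN rats, procainamide went with higher Hdc and Fcer1a, while the 3 granule proteases had negative differences that did not pass the test. Hdc had log2 ratios of 2.67, 1.69, 0.73 and 2.16 on the BN procainamide arrays, against -0.23, 0.23, 0.59 and 0.30 on the BN control arrays. All 4 treated arrays lay above all 4 controls, with procainamide 3 closest to them. Hdc was 3.01-fold higher in treated BN rats (log2 1.59 ± 0.34 SE, adjusted p = 0.00337, limma with Benjamini-Hochberg adjustment). The Fcer1a ratios were 0.44, 0.67, 0.07 and 0.92 with procainamide and -0.64, 0.35, -0.59 and -0.50 in controls. Control 2 stood above procainamide 3, so the groups overlapped, and the difference was 1.83-fold (log2 0.87 ± 0.28, adjusted p = 0.0357).

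Fcer1a and Hdc were the 2 of 8 members called in BN rats, both higher, where 22.8% of the named genes were called, 8.99% higher and 13.8% lower. Only Hdc, 1 of 8, separated the groups without overlap, as 19.9% of the named genes did (8.18% with the treated group higher). The median difference was 0.09 over the 8 members and -0.02 over all named genes. The second Fcer1a probe, which averages 10 spots where the brightest has a single spot, gave ratios of 0.24, 0.41, 0.05 and 0.22 with procainamide and -0.03, 0.29, 0.09 and 0.15 in controls. Its difference of 0.10 (95% interval -0.15 to 0.35, adjusted p = 0.572) did not pass, although both probes share 1 accession. Their log2 ratios, without group means taken off, correlated over the 18 arrays (r = 0.791). The Fcer1a call therefore rests on the single-spot probe.

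Ms4a2 had ratios of 0.28, 0.22, -0.04 and 0.52 in treated BN rats, against -0.53, 0.35, -0.31 and -0.39 in BN controls (log2 difference 0.47, 95% interval -0.02 to 0.95, adjusted p = 0.163). Control 2 was the exception here too, with the second highest ratio of all 8 BN arrays. Il1rl1 differed by 0.33 (interval -0.05 to 0.72, adjusted p = 0.212) and its dimmer probe by 0.33 (-0.02 to 0.67, adjusted p = 0.174). Gata2 differed by -0.19 (-0.46 to 0.09, adjusted p = 0.334). None of these 3 genes passed.

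Of the granule proteases, Cpa3 and Cma1 varied widely among BN controls, with SDs of 1.34 and 0.91 in the log2 ratio, and Tpsab1 did not (SD 0.18). Cpa3 had ratios of -2.69, -1.50, -0.80 and -1.75 with procainamide, against -1.67, 0.92, -2.09 and -0.70 in BN controls. The control range alone covered over 3 log2 units and held 3 of the 4 treated values. Cma1, with ratios of -1.80, -1.35, -0.59 and -1.19 in treated rats and -1.26, 0.72, -1.10 and -0.29 in controls, showed the same order of arrays among the controls at its top end, with control 2 highest and control 4 next. The differences were -0.80 for Cpa3 (interval -2.08 to 0.48, adjusted p = 0.375), -0.75 for Cma1 (-1.53 to 0.03, adjusted p = 0.161) and -0.16 for Tpsab1 (-0.38 to 0.06, adjusted p = 0.286).

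**Figure D1:**
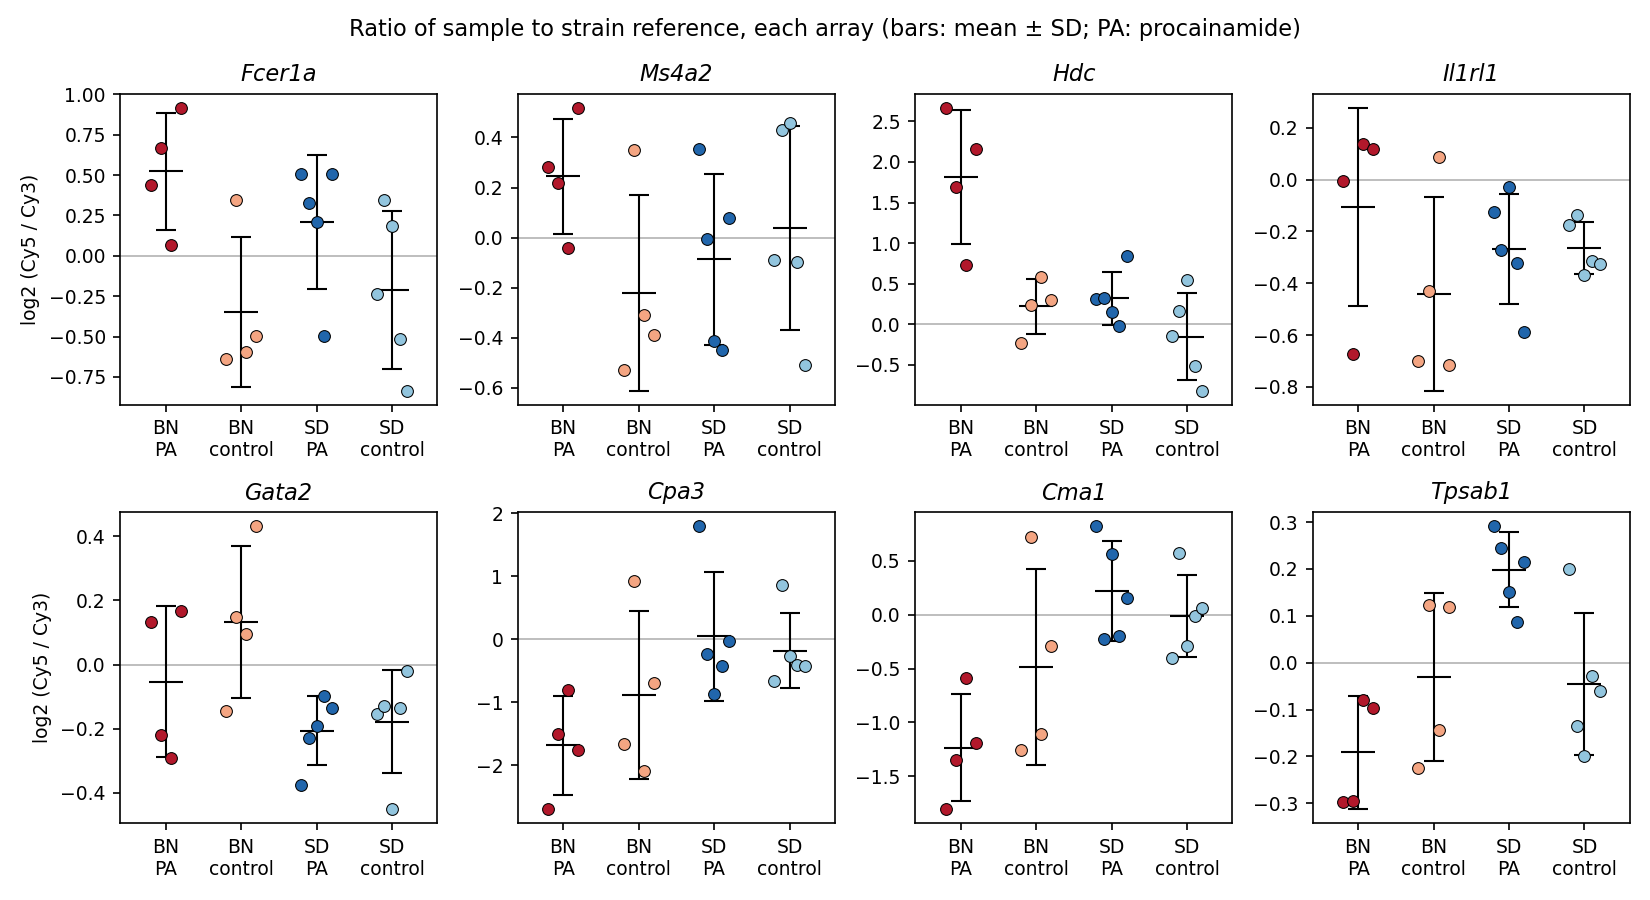
Log2 ratio of Cy5 over Cy3 for each member (brightest probe) on each array, by group, with the mean and SD as bars. The 4 BN procainamide arrays of Hdc, between 0.73 and 2.67, lie above all BN control arrays, whereas Cpa3 in BN controls spreads from -2.09 to 0.92.

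Hdc was called under 30 of the 32 alternative settings and Fcer1a under 22 of 32. The exceptions for Hdc were scan day as a term (log2 1.74, adjusted p = 0.201) and array brightness as a term (1.79, adjusted p = 0.0610), under which Fcer1a gave 0.53 (adjusted p = 0.711) and 0.30 (adjusted p = 0.689). Leaving out BN control 1, 3 or 4 or BN procainamide 2 or 4 also ended the Fcer1a call, with adjusted p between 0.0836 and 0.110. Without BN control 2, Ms4a2 was called as well (0.66, adjusted p = 0.0493), which made 3 of 8. Il1rl1 was called higher under 4 of the 32 settings. It passed with the processed signals of the scanner software (0.61, adjusted p = 0.0466) and with the deposited log ratios (0.61, adjusted p = 0.0454). It also passed without BN control 3 (0.51, adjusted p = 0.0487) and without BN procainamide 2 (0.52, adjusted p = 0.0385). Array brightness moved with the BN groups, the median Cy5 spot signal being 1694 to 3187 on BN procainamide arrays and 997 to 1986 on BN control arrays.

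In SD rats none of the 8 members passed, where 3.18% of the named genes were called (1.42% higher and 1.76% lower), and 1 of 8 had an unadjusted p under 0.05. That gene was Tpsab1, with ratios of 0.29, 0.24, 0.15, 0.09 and 0.22 in treated SD rats, against 0.20, -0.14, -0.20, -0.03 and -0.06 in SD controls. Control 1 stood inside the treated range and the other 4 controls below it (log2 difference 0.24 ± 0.09, adjusted p = 0.174). No member separated its SD groups without overlap, where 8.92% of the named genes did (4.38% with the treated group higher). The median difference was 0.23 over the members and -0.01 over all named genes.

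The 2 members called in BN rats did not pass in SD rats. Hdc had ratios of 0.31, 0.32, 0.15, -0.03 and 0.84 with procainamide, against -0.14, 0.17, 0.54, -0.51 and -0.82 in SD controls (difference 0.47, interval -0.17 to 1.11, adjusted p = 0.467). Fcer1a had ratios of 0.50, 0.33, 0.21, -0.49 and 0.51 with procainamide, against -0.24, 0.35, 0.18, -0.52 and -0.83 in SD controls (0.42, interval -0.11 to 0.95, adjusted p = 0.419). Both groups overlapped for each gene. Within slide 1 alone, which held all SD controls and 3 of the 5 treated arrays, the differences were 0.41 for Hdc, 0.56 for Fcer1a and 0.27 for Tpsab1, and none passed (adjusted p of 0.504, 0.308 and 0.209).

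The test of the difference between the BN and SD responses called 0 of 8 members, where 10.7% of the named genes were called (3.15% higher and 7.54% lower), with 2 of 8 under an unadjusted p of 0.05. For Hdc the BN response exceeded the SD response by 1.12 ± 0.46 on the log2 scale (interval 0.16 to 2.09, adjusted p = 0.124). For Tpsab1 it was smaller by -0.40 ± 0.14 (interval -0.69 to -0.11, adjusted p = 0.0677). For Cpa3 and Cma1 the difference was -1.03 (interval -2.75 to 0.69) and -0.99 (-2.03 to 0.06), so a strain difference of either size could not be told from none at this spread. Leaving out BN procainamide 3 brought Hdc past the threshold (1.48, adjusted p = 0.0229), and leaving out BN control 1 or SD control 1 did so for Tpsab1 (-0.47, adjusted p = 0.0369, and -0.46, adjusted p = 0.0362).

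**Figure D2:**
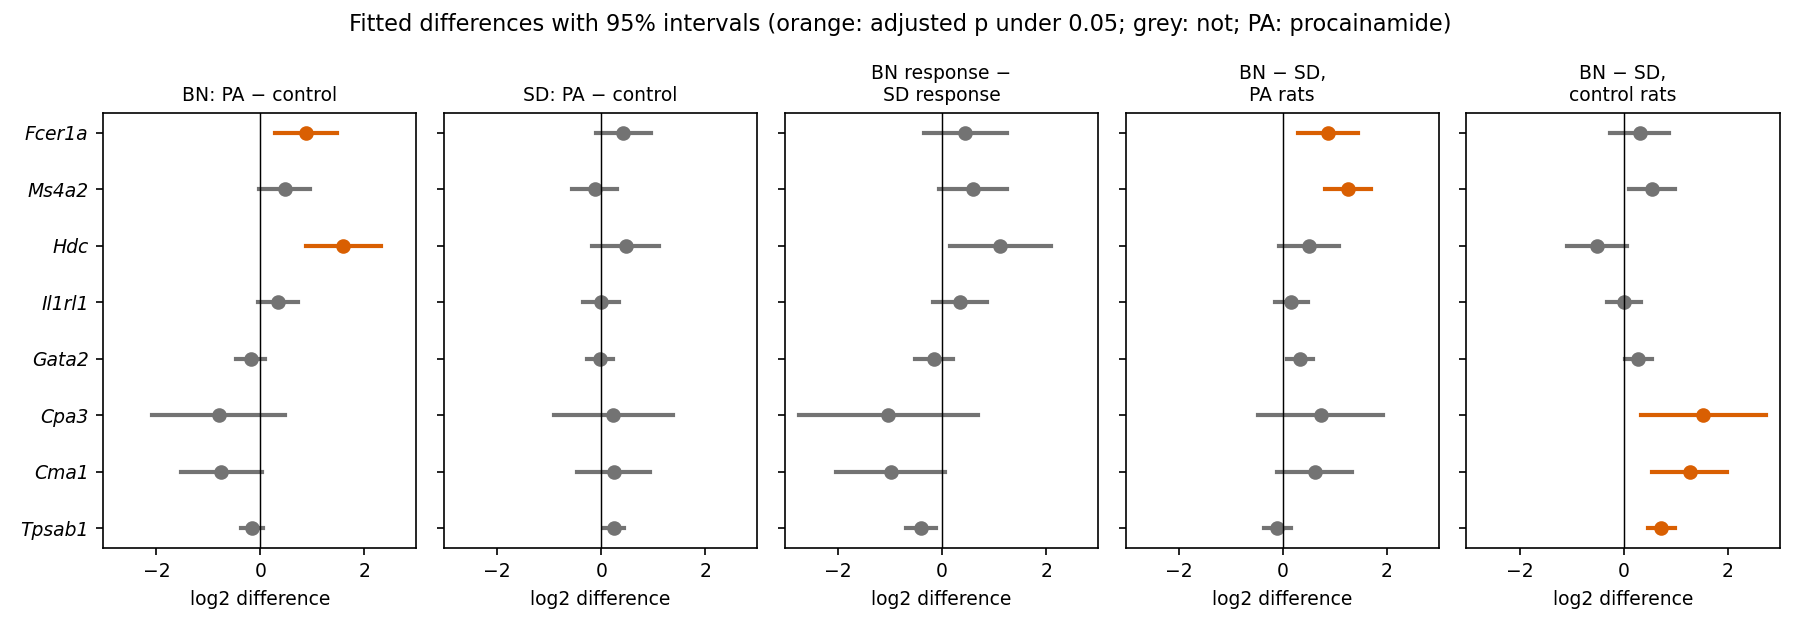
Fitted log2 differences of the 8 members in the 5 comparisons, with 95% intervals; orange marks an adjusted p under 0.05. Hdc and Fcer1a are called in the BN response, none in the SD response, Ms4a2 and Fcer1a between treated BN and SD rats, and Tpsab1, Cma1 and Cpa3 between control rats.

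Strains were compared on log2 Cy5 levels, since each strain had its own reference. Among procainamide-treated rats the alpha and beta chain genes of the IgE receptor were higher in BN. Ms4a2 had log2 Cy5 levels of 9.78, 9.88, 9.50 and 9.95 on the BN arrays and 8.85, 8.59, 8.24, 8.19 and 8.74 on the SD arrays. All BN arrays lay above all SD arrays, a 2.39-fold difference (log2 1.25 ± 0.21, adjusted p = 0.000752). Fcer1a levels were 9.64, 9.92, 9.17 and 9.95 in treated BN rats, against 9.11, 8.97, 8.74, 8.13 and 9.07 in treated SD rats. The groups did not overlap but nearly met at BN procainamide 3 and SD procainamide 1, and the difference was 1.82-fold (0.86 ± 0.27, adjusted p = 0.0330).

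These were 2 of 8 members called, where 19.2% of the named genes were called, 9.46% higher and 9.75% lower. The same 2 members were those without overlap, which 13.9% of the named genes showed (6.89% with BN higher). The median difference was 0.56 over the members and 0.02 over all named genes. Ms4a2 was called under all 30 alternatives of this comparison, with log2 differences of 1.06 to 1.48, scan day as a term among them (1.22). Fcer1a was called under 22 of 30, and lost its call with scan day as a term (0.73, adjusted p = 0.149), which here equals the comparison among arrays scanned on the same day. It was also lost without BN procainamide 2 or 4 or SD procainamide 3 or 4, with adjusted p of 0.0946, 0.0997, 0.0529 and 0.0883. The second Fcer1a probe gave 0.21 (adjusted p = 0.208).

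Of the others, Gata2 averaged 9.01 ± 0.23 in treated BN rats (SD, n = 4) and 8.68 ± 0.16 in treated SD rats (SD, n = 5), a difference of 0.33 (adjusted p = 0.0612). Hdc averaged 13.34 ± 0.67 and 12.84 ± 0.25 in the same groups (0.50, interval -0.07 to 1.08, adjusted p = 0.203). Cpa3 averaged 8.78 ± 0.74 in treated BN rats and 8.05 ± 0.96 in treated SD rats (0.72, adjusted p = 0.390), Cma1 averaged 11.60 ± 0.50 and 10.99 ± 0.47 (0.61, adjusted p = 0.217), and Tpsab1 averaged 8.78 ± 0.21 and 8.88 ± 0.13 (-0.11, adjusted p = 0.578). With all arrays none of these 5 passed. Il1rl1 differed by 0.16 (adjusted p = 0.491). Without BN procainamide 3, Gata2 (0.40, adjusted p = 0.0373) and Hdc (0.78, adjusted p = 0.0395) were called too, which made 4 of 8.

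Among control rats it was the 3 granule proteases that were higher in BN. Tpsab1 had log2 Cy5 levels of 8.84, 9.39, 8.85 and 9.23 in BN controls, against 8.45, 8.23, 8.23, 8.43 and 8.45 in SD controls. The groups stood apart (log2 0.72 ± 0.12, 1.64-fold, adjusted p = 0.000359). Cma1 levels were 11.34, 13.17, 11.49 and 12.29 in BN controls and 10.44, 11.34, 10.47, 10.81 and 10.98 in SD controls. The lowest BN value and the highest SD value, both 11.34 after rounding, nearly touched, and the difference was 2.40-fold (1.26 ± 0.34, adjusted p = 0.00772). Cpa3 levels were 8.60, 11.14, 8.13 and 9.58 in BN controls, against 7.41, 8.92, 7.75, 7.56 and 7.52 in SD controls, with overlap through SD control 2 (2.89-fold, 1.53 ± 0.57, adjusted p = 0.0411).

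These 3 of 8 members were called higher where 36.7% of the named genes were called, 16.6% higher and 20.1% lower. Tpsab1, Cma1 and Gata2 were the 3 members without overlap, as were 34.5% of the named genes (15.1% with BN higher). The median difference was 0.42 over the members and -0.06 over all named genes. Gata2 averaged 9.06 ± 0.22 in BN controls (SD, n = 4) and 8.78 ± 0.11 in SD controls (SD, n = 5) and did not pass (0.28, adjusted p = 0.0765). Ms4a2 differed by 0.54 (9.15 ± 0.30 in BN and 8.62 ± 0.47 in SD, adjusted p = 0.0527), Fcer1a by 0.30 (adjusted p = 0.394) and Hdc by -0.52 (11.92 ± 0.30 in BN and 12.44 ± 0.47 in SD, adjusted p = 0.143). The second Fcer1a probe was called higher in BN controls (0.41, adjusted p = 0.00837).

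Cma1 and Tpsab1 were each called under 30 of 31 alternatives and Cpa3 under 17 of 31. With scan day as a term no member passed, at 1.87 for Cma1 (adjusted p = 0.126), 0.84 for Tpsab1 (adjusted p = 0.0605) and 1.85 for Cpa3 (adjusted p = 0.438). Cpa3 leaned on BN control 2: without it the difference was 0.94 (adjusted p = 0.170), and it was also lost without BN control 4 or SD control 1, 3, 4 or 5, with adjusted p of 0.0666 to 0.0883. The Cy3 channel, which by label holds 1 RNA per strain and so carries no test, had Cpa3 at 10.36 on the BN arrays and 8.01 on the SD arrays, Cma1 at 12.69 and 10.79, Tpsab1 at 9.04 and 8.55, and Hdc at 11.61 and 12.55.

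**Figure D3:**
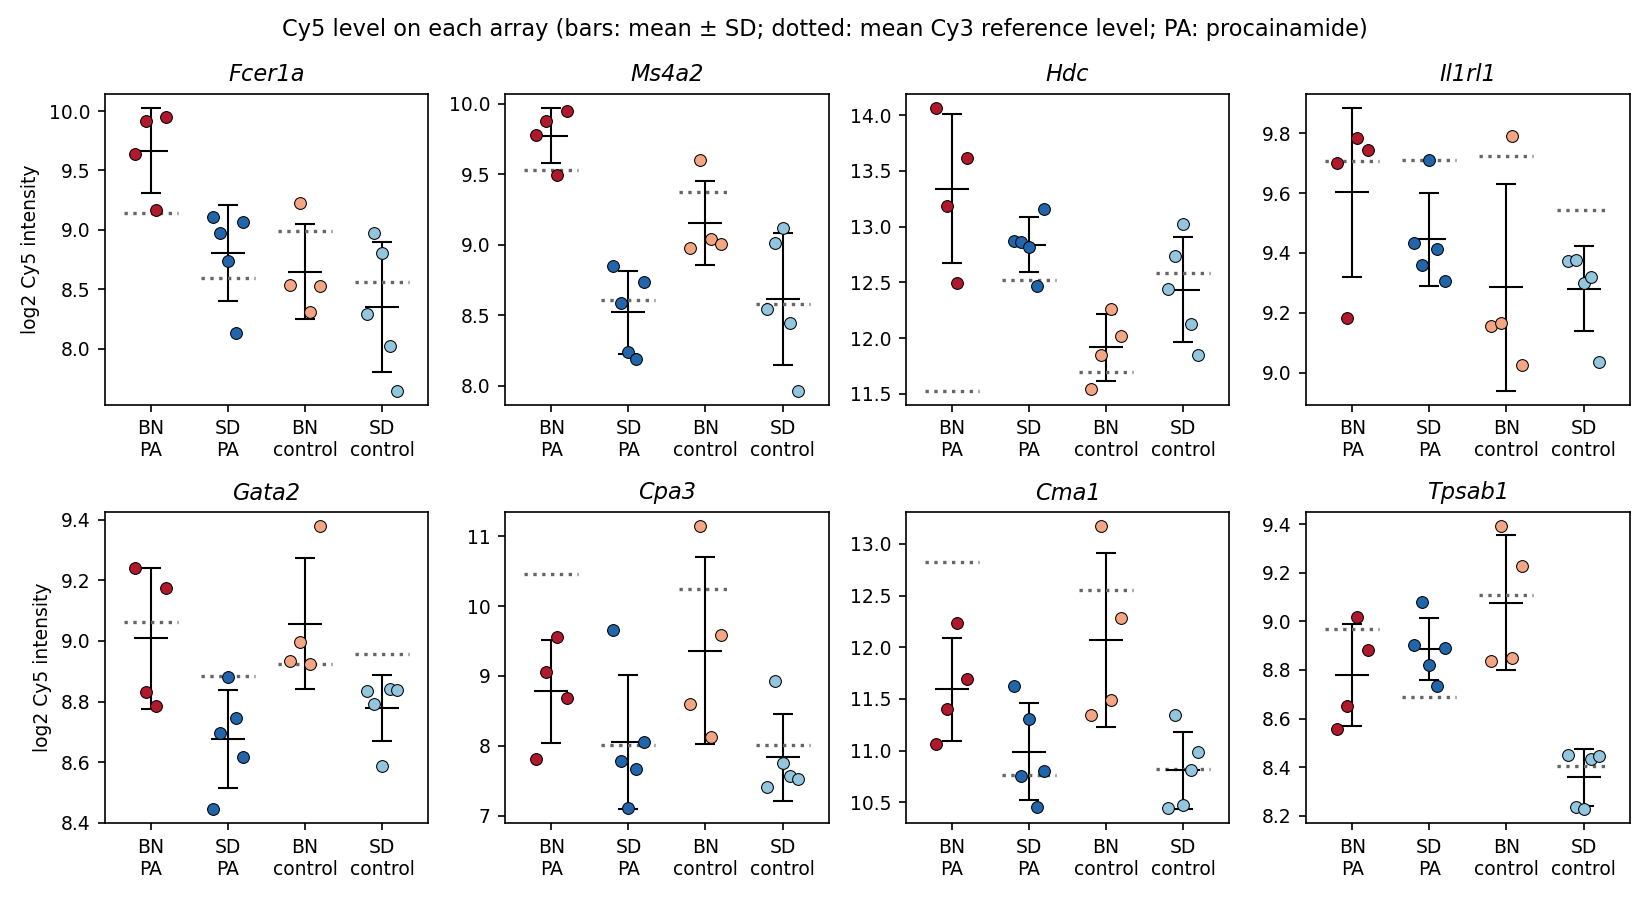
Log2 Cy5 level of each member (brightest probe) on each array, BN beside SD within each treatment, with mean and SD as bars and the mean Cy3 reference level dotted. Ms4a2 on the 4 BN procainamide arrays (9.50 to 9.95) lies above the 5 SD procainamide arrays (8.19 to 8.85), and Tpsab1 on the BN control arrays lies above the SD control arrays.

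Each gene's groups could also be put in order by their mean Cy5 level. Ms4a2 was highest in BN procainamide (9.78 ± 0.20), then BN control (9.15 ± 0.30), SD control (8.62 ± 0.47) and SD procainamide (8.52 ± 0.30). Fcer1a ran from BN procainamide (9.67 ± 0.36) over SD procainamide (8.80 ± 0.40) and BN control (8.65 ± 0.40) to SD control (8.35 ± 0.55), with the last 3 within their spread of each other. Hdc had BN control lowest (11.92 ± 0.30) and BN procainamide highest (13.34 ± 0.67), on either side of the SD groups. Cpa3 and Cma1 were highest in BN control (9.36 ± 1.33 and 12.07 ± 0.84) and lowest in SD control (7.83 ± 0.62 and 10.81 ± 0.38). The Il1rl1 group means spanned only 9.28 to 9.60, within the spread of single groups.

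Within groups, members fell into sets whose arrays were high or low together. For each pair the deviations of the log2 ratio from the group mean were correlated over the 18 arrays, 28 pairs in all, with permutation p-values that shuffled arrays within groups. Fcer1a and Ms4a2, the alpha and beta chains of 1 receptor, were the most alike (r = 0.915, permutation p = 4e-05, adjusted p = 0.00112; rho = 0.884, permutation p = 5e-05, adjusted p = 0.0014). Without the 2 arrays farthest from the median (BN control 2 and SD procainamide 4) r was 0.898, and it was 0.954 within BN and 0.893 within SD.

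Cpa3 and Cma1 formed the other pair, with r = 0.847 (permutation p = 0.00036, adjusted p = 0.00504) and rho = 0.777 (permutation p = 0.00337, adjusted p = 0.0449). Leaving out BN control 2 and SD procainamide 1 gave r = 0.753, and r was 0.971 within BN and 0.658 within SD. Ms4a2 and Hdc stood at the threshold (r = 0.620, permutation p = 0.0054, adjusted p = 0.0504; rho = 0.657, permutation p = 0.00481, adjusted p = 0.0449), with 0.758 without BN control 2 and SD procainamide 1, 0.446 within BN and 0.817 within SD. Fcer1a and Hdc gave r = 0.599 (permutation p = 0.0126, adjusted p = 0.0882) and rho = 0.616 (permutation p = 0.0174, adjusted p = 0.122), with 0.665 without BN control 2 and SD procainamide 4. No other pair had an adjusted p under 0.1.

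Some pairs had a high r in 1 strain and a value near or below 0 in the other. Cma1 and Tpsab1 had r = 0.866 within BN but -0.100 within SD, and Gata2 and Hdc had 0.724 within BN but -0.608 within SD. Whether those values differ between strains was not tested. The pooled values were 0.493 (permutation p = 0.0987, adjusted p = 0.347; rho = 0.600, adjusted p = 0.201) for Cma1 with Tpsab1 and 0.254 (permutation p = 0.436, adjusted p = 0.909; rho = 0.273, adjusted p = 0.863) for Gata2 with Hdc. Leaving out the 2 arrays farthest from the median gave 0.288 and 0.418. Of the promoters printed, those of Cpa3, Cma1 and Fcer1a held a GATA word and those of Hdc and Tpsab1 none. At least 1 word was held by 30.3% of rat promoters of that length. Gata2 itself had r = -0.179 with Cpa3, 0.036 with Cma1 and -0.079 with Fcer1a (permutation, adjusted p of 0.909, 0.915 and 0.915). A part of GATA factors in these pairs was not tested.

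**Figure D4:**
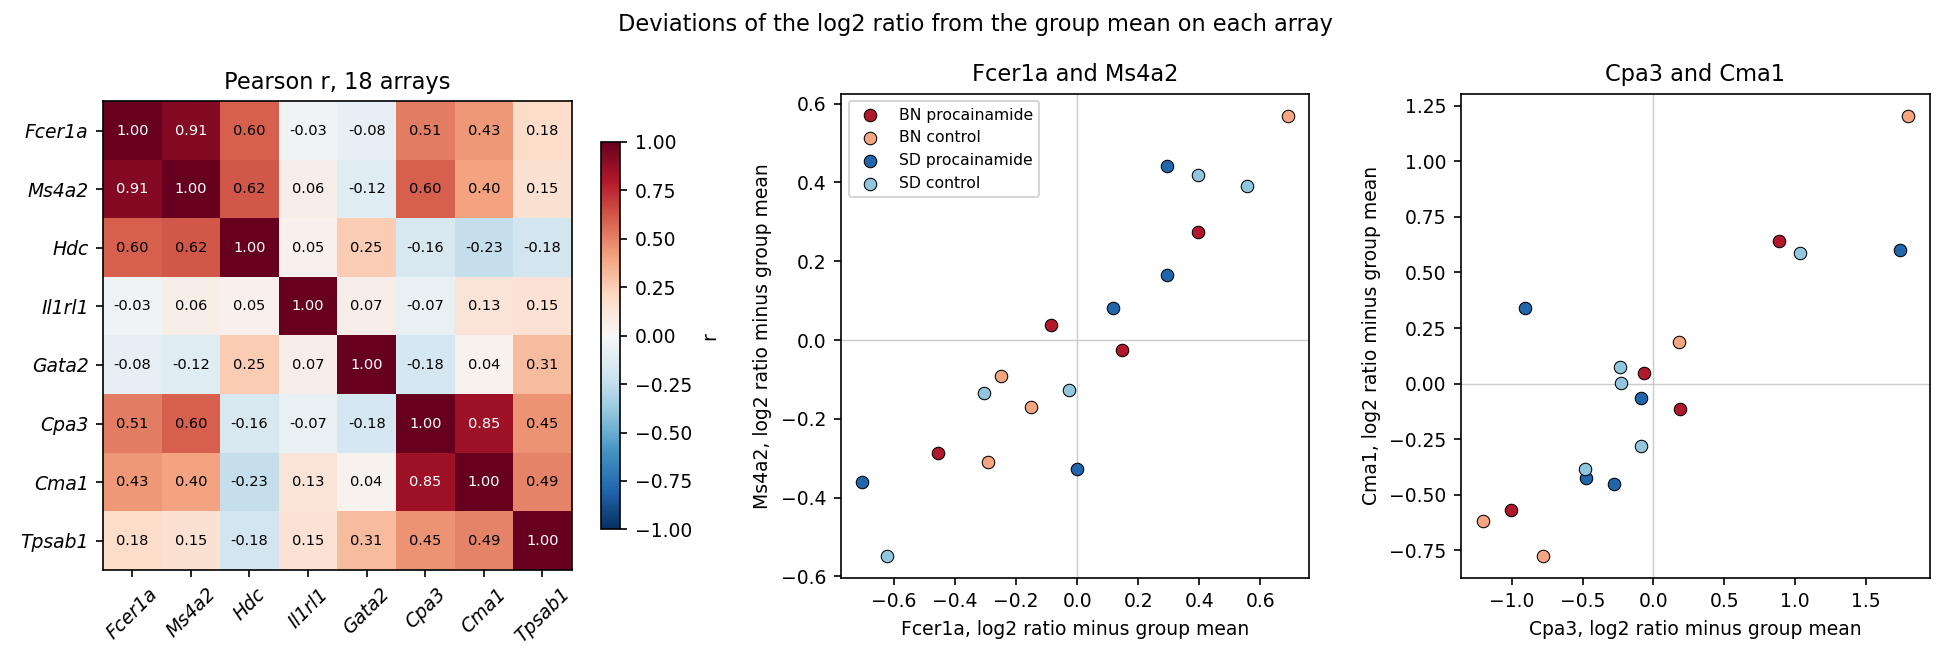
Left, Pearson r of the deviations of the log2 ratio from the group mean for all pairs of members over 18 arrays; middle and right, those deviations for Fcer1a with Ms4a2 (r = 0.915) and for Cpa3 with Cma1 (r = 0.847), 1 point per array, coloured by group. Arrays of all 4 groups lie along both diagonals.

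The 3 genes most like each member by the same measure, among 13608 named genes, are a description only. For Hdc they were Dnase2b (r = 0.883), Il5ra (0.812) and Or1aa2 (0.805). Il5ra encodes the interleukin 5 receptor alpha chain and belongs to the eosinophil marker list used below. Cma1 was nearest to C6 (0.872), Mcpt4 (0.868), another mast cell protease, and Cd209a (0.861), and Cpa3 to Cd209a (0.856), Ints6 (0.832) and Lrrc40 (0.818). Fcer1a was nearest to Gimap5 (0.869), Hycc2 (0.812) and Evi2a (0.796), which is less than its value with Ms4a2, and Ms4a2 to Adam4 (0.836), Rnf125 (0.833) and Hmx1 (0.786). Il1rl1 was nearest to Cttnbp2 (0.939), Nck2 (0.924) and Tshz3 (0.915), Gata2 to Klf9 (0.885), Ptpre (0.883) and Them7 (0.863), and Tpsab1 to Mettl26 (0.813), Adh4 (0.745) and Or2y15 (0.721). The 2 Il1rl1 probes, which carry different transcript accessions, had r = 0.101 between their log2 ratios over the 18 arrays, without group means taken off.

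Other granule proteases were read through a list of 18, of which 10 were measured. In control rats 8 of the 10 were higher in BN and none lower, with a median log2 difference of 0.71 where the median of all named genes was -0.06. Of the named genes 16.6% were called higher in that comparison and 20.1% lower. Prss34, a basophil serine protease in mice, was 1.84-fold higher in BN controls (log2 0.88 ± 0.13, adjusted p = 0.000107), the tryptase Tpsb2 1.89-fold (0.92 ± 0.18, adjusted p = 0.000836), Mcpt9 1.62-fold (0.70 ± 0.14, adjusted p = 0.00122) and Mcpt8, also a basophil protease in mice, 1.56-fold (0.64 ± 0.18, adjusted p = 0.0107). Of these 4, Mcpt8 and Mcpt9 were also higher in BN among treated rats (0.91 ± 0.18, adjusted p = 0.00263, and 0.90 ± 0.14, adjusted p = 0.000459). Among treated rats 4 of 10 proteases were called higher and none lower (9.46% and 9.75% of the named genes). With scan day as a term 0 of 10 were called in controls and 4 of 10, all higher in BN, in treated rats.

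In the BN response 3 of the 10 proteases were called lower and none higher (13.8% and 8.99% of the named genes), with a median of -0.23, and with scan day as a term 0 of 10 were called. Prss34 was lower by -0.53 ± 0.13 (adjusted p = 0.00747), with ratios from -0.20 to 0.02 in treated BN rats and from 0.24 to 0.90 in BN controls, which did not overlap. Tpsb2 was lower by -0.45 ± 0.14 (adjusted p = 0.0330). In SD rats none passed, although all 10 had positive differences (0.00 to 0.33). Mcpt4, one of the 3 genes most like Cma1, was also called lower (-1.04 ± 0.32, adjusted p = 0.0289). The difference between responses was called for 2 of 10, Prss34 (-0.74 ± 0.17, adjusted p = 0.0115) and Tpsb2 (-0.60 ± 0.19, adjusted p = 0.0499). Of the named genes 3.15% were called higher there and 7.54% lower. With scan day as a term 0 of 10 proteases were called there. Several Mcpt genes and both tryptases are close copies of each other, and how far their probes read more than 1 copy was not tested.

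Genes that handle histamine beside Hdc numbered 5 measured of 8 listed. Slc22a3, an organic cation transporter that carries histamine, was lower with procainamide in both strains (-1.003 ± 0.180, adjusted p = 0.000998 in BN, and -0.75 ± 0.16, adjusted p = 0.0184 in SD) and was called lower in BN under 31 of 32 alternatives, scan day as a term included (-1.33, adjusted p = 0.0378). Aoc1, the diamine oxidase that breaks down histamine, was higher in BN both with procainamide (1.43 ± 0.22, adjusted p = 0.000396) and in controls (1.02 ± 0.22, adjusted p = 0.00200). Slc18a2, the vesicular transporter that loads histamine into granules, was higher in BN among treated rats (0.74 ± 0.14, adjusted p = 0.00177), and the histamine receptor gene Hrh4 was higher in BN controls (0.56 ± 0.18, adjusted p = 0.0194). In controls 3 of the 5 were higher in BN and 1 lower (16.6% and 20.1% of the named genes), and 0 were called with scan day as a term. Among treated rats 2 were higher and 1 lower (9.46% and 9.75%), the same counts as with scan day as a term. In the BN response none of the 5 was called higher and 2 lower (8.99% and 13.8% of the named genes), and 1 of these, Slc22a3, with scan day as a term. In the SD response Slc22a3 was the 1 of 5 called lower (1.76% of the named genes), and 0 were called with scan day as a term.

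All 15 listed genes of IgE receptor signalling were measured. In the BN response 2 of 15 were higher and none lower, where 8.99% of the named genes were higher and 13.8% lower, and with scan day as a term 0 were called. These were Fyn, a kinase downstream of the receptor (0.38 ± 0.08, adjusted p = 0.00285), and Inpp5d, the phosphatase SHIP1 that restrains it (0.39 ± 0.10, adjusted p = 0.00874). In SD rats 0 of 15 passed, with differences of -0.33 to 0.32. In control rats 2 were higher and 4 lower in BN, where 16.6% of the named genes were higher and 20.1% lower, and 0 were called with scan day as a term. Among the 6 were Fyn at -0.58 ± 0.08 (adjusted p = 9.59e-05), Inpp5d at -0.47 ± 0.09 (adjusted p = 0.000684), Btk at -0.35 ± 0.11 (adjusted p = 0.0182) and Ptpn6, the phosphatase SHP-1, at 0.26 ± 0.06 (adjusted p = 0.0038). Among treated rats only 1 of 15, Inpp5d, was called (0.27 ± 0.09, adjusted p = 0.0386). Of the named genes 9.46% were higher and 9.75% lower there, and with scan day as a term 0 of 15 were called.

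Of 11 surface genes known from basophils, 8 were measured, with 2 higher and 2 lower in the BN response (8.99% and 13.8% of the named genes), 0 called there with scan day as a term, and none called in SD. Enpp3 (CD203c), an activation marker of basophils in humans, was 1.75-fold higher in treated BN rats (0.80 ± 0.24, adjusted p = 0.0212) and higher in BN than in SD among treated rats (0.57 ± 0.17, adjusted p = 0.0298). The complement receptor gene C5ar1 was higher in the BN response (0.75 ± 0.15, adjusted p = 0.00246) and C3ar1 lower (-0.44 ± 0.12, adjusted p = 0.0131). Ccr3, the eotaxin receptor shared with eosinophils, was 3.93-fold lower (-1.97 ± 0.30, adjusted p = 0.000327). In the strain comparison of treated rats 2 were higher and 2 lower in BN (9.46% and 9.75% of the named genes). In that of controls none was higher and 2 were lower (16.6% and 20.1%). Once scan day entered the fit, treated rats had 1 higher and 2 lower in BN, and controls had 0 called.

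Of the lipid mediator genes 7 of 8 were measured. Alox5, which starts leukotriene synthesis, was higher in the BN response (0.73 ± 0.18, adjusted p = 0.00936) and in the difference between responses (1.10 ± 0.25, adjusted p = 0.00879), and lower in BN controls than in SD controls (-1.16 ± 0.18, adjusted p = 0.000155). Ltc4s was lower in BN among treated rats (-0.54 ± 0.13, adjusted p = 0.00765), Alox5ap lower in BN controls (-0.83 ± 0.20, adjusted p = 0.00358) and Ptgs1 higher in BN controls (0.56 ± 0.15, adjusted p = 0.00701). In the BN response 2 of 7 were higher and none lower (8.99% and 13.8% of the named genes), and 0 of 7 were called with scan day as a term. In controls 1 of 7 was higher and 2 lower in BN (16.6% and 20.1% of the named genes), and in the difference between responses 1 was higher (3.15%). With scan day as a term 0 of 7 were called in either. None passed in SD.

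Growth factors, alarmins and type 2 cytokines with their receptors gave 13 measured of 15. In the BN response 2 were higher and 4 lower (8.99% and 13.8% of the named genes), and in SD 1 was lower (1.76%). With scan day as a term 0 were called in either. Il33, the ligand of the ST2 receptor, was higher in treated BN rats (0.56 ± 0.12, adjusted p = 0.00352). Its BN response exceeded the SD response (0.72 ± 0.16, adjusted p = 0.00958), a call lost with scan day as a term. Il9 was lower (-0.87 ± 0.14, adjusted p = 0.0006), and Kitlg, the mast cell growth factor stem cell factor, was lower in BN (-0.31 ± 0.09, adjusted p = 0.0243) and in SD (-0.32 ± 0.08, adjusted p = 0.0474). Il4 was 2.62-fold lower in BN controls than in SD controls (-1.39 ± 0.14, adjusted p = 4.49e-06) and was called there under all 31 alternatives. Of 10 transcription factors of these lineages beside Gata2, 1 was called in the BN response, Stat5b, which was lower (-0.47 ± 0.13, adjusted p = 0.0134) but not called with scan day as a term, and none in SD. Of the named genes 13.8% were called lower in the BN response.

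Markers of other blood cells moved with some of these results. In the BN response 3 of 6 eosinophil markers were lower and none higher (median log2 difference -1.56), where 13.8% of the named genes were lower and 8.99% higher. The summed Cy5 signal of the eosinophil markers was 12025 to 30122 on BN procainamide arrays, against 22323 to 67083 on BN control arrays. Of 8 neutrophil markers 1 was called higher in the BN response and 6 were higher in BN among treated rats, where 9.46% of the named genes were. Their summed Cy5 was 52177 to 119687 in BN procainamide, 52738 to 75451 in BN control and 31839 to 70067 in SD procainamide. All 8 neutrophil markers and 5 of the 6 eosinophil markers were well above background on all 18 arrays, and their part in the Hdc, Fcer1a and Ms4a2 differences was not tested. The deviations of Hdc from its group means had r = -0.138 with the mean deviation of the eosinophil markers, both in log2 ratio (permutation p = 0.623, adjusted p = 0.871, and rho = -0.108, adjusted p = 0.950). Without BN procainamide 1 and 3 this r was 0.267. None of the 88 pairs of a member and a marker list passed. Of 5 platelet markers measured, all well above background on all 18 arrays, 4 were lower and none higher in the BN response (median -0.67). In BN against SD controls 4 of these markers were higher and none lower (median 0.59), where 16.6% of the named genes were higher and 20.1% lower. Their summed Cy5 signal was 52279 to 75316 in BN procainamide, 64467 to 96470 in BN control, 40972 to 43979 in SD procainamide and 49558 to 58559 in SD control. In both comparisons these calls ran the same way as those of the granule proteases. In the SD response neither list had a call. There all 5 platelet markers had negative differences (median -0.43) and all 10 proteases positive ones (median 0.13). The part of platelets in the protease results was not tested.

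The blood label could be checked against leukocyte and vessel markers. All 3 leukocyte markers, 8 of 8 neutrophil markers and 4 of 7 erythroid markers were measured and well above background on all 18 arrays. So were 6 of 6 connective tissue markers, with summed Cy5 of 108579 to 144226 in BN procainamide, 164988 to 188459 in BN control, 141447 to 178040 in SD procainamide and 194696 to 241175 in SD control, and 6 of 7 endothelial markers. Mast cells reside in connective tissue, and Cpa3 and Cma1 levels are given beside that list for this reason. The connective tissue list was lower in BN than in SD controls for 4 of 6 genes and higher for none (20.1% and 16.6% of the named genes), while Cpa3, Cma1 and Tpsab1 were higher in BN controls. In the BN response 3 of 6 connective tissue genes (median -0.69) and 3 of 6 endothelial genes (median -0.58) were lower and none higher (13.8% and 8.99% of the named genes), the direction of the calls of Prss34, Tpsb2 and Mcpt4. In the SD response 2 of 6 connective tissue genes (median -0.52) and 1 of 6 endothelial genes (median -0.34) were lower and none higher. Of the named genes 1.76% were lower there and 1.42% higher, and all 10 proteases had positive differences, none called. The part of these tissues in the protease results was not tested.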

How the data were processed

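RNA from rat blood was hybridised to Agilent arrays (design 028279 with 62976 spots, per the file headers), after Trizol extraction and low-input amplification, per the labels' protocols. The raw values are spot and background intensities made with Feature Extraction 10.7.1.1, not normalized, per the file headers. Processed intensities, with local background removed and dyes balanced, and log10 ratios of Cy5 over Cy3 come from that program too, per the file headers. A value matrix deposited by the authors, read here as log2 ratios, states neither scale nor centring nor direction. Against the scanner's log10 ratios taken to base 2 each of its columns gave r of at least 0.999, so it holds log2 of Cy5 over Cy3 without centring of genes, and its probe filter stays unknown. Its column medians were 0.07 or less in size: 0.0653, 0.0477, 0.0179 and 0.0368 (BN procainamide 1 to 4), -0.0140, 0.0135, 0.00266 and 0.000872 (BN control 1 to 4), 0.0282, 0.0367, 0.0575, 0.0180 and 0.0133 (SD procainamide 1 to 5), and 0.0210, 0.00510, 0.0173, 0.0121 and 0.0181 (SD control 1 to 5). It served as an alternative.

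In R 4.3.3, limma 3.58.1 corrected the background (normexp, offset 50) and fitted loess to each array with control spots at weight 0. Cy5 levels further received Aquantile, and spots of a probe were averaged. Probes whose Cy5 passed the scanner's test against background on 4 or more of 18 arrays were tested in 1 linear model with 4 group means (14 residual degrees of freedom, eBayes, 2-sided), with Benjamini-Hochberg adjustment over all 26446 probes and a threshold of 0.05. A gene is its probe of highest mean intensity. Fold changes are on the log2 scale of these intensities, and offset 50 compresses those of dim probes. Precision is limited by how many arrays there are. The fit was tested on simulated data with independent noise and no slide or scan day effect, so that test does not cover batch. The members and gene lists were chosen with earlier results of these data known. Related genes named are, per list, up to 4 past the threshold with the smallest p in any of the 5 comparisons, and, per member, the 3 genes most like it. Replicate numbers did not pair arrays, the correlations of same-numbered deviations running from -0.523 to 0.129. Alternatives changed the background correction, normalization, filter, batch terms, probe choice, quantity and arrays used.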

Additional observations from a re-analysis of the deposited data

Results flagged for a closer look

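Of 40 sets of probe and group that were screened, 2 had an array far from the others of its group, and chance alone flags about 1 in 20. The Cpa3 log2 ratio of SD control 2 was 0.85, while the next SD control stood at -0.27. The Fcer1a log2 ratio of BN control 2 was 0.35, while the next BN control stood at -0.50. Cpa3, Cma1 and Fcer1a all had their highest control ratio on control 2 in both strains, at 0.92, 0.72 and 0.35 on BN control 2 and 0.85, 0.58 and 0.35 on SD control 2. The labels give no link between arrays that share a number. Without BN control 2 the strain difference of Cpa3 in control rats was 0.94 (adjusted p = 0.170, limma), against 1.53 with it.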

How the results depend on the processing

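No called result about a member changed sign under any setting. The number of members called, 2 of 8 in the BN response, 0 in the SD response, 0 in the difference between responses, 3 in the strain comparison of controls and 2 in that of treated rats, moved as follows. Scan day as a term gave 0 in the BN response, 0 in controls and 1 in treated rats. Array brightness as a term gave 0 in the BN response, and slide as a random block gave 1 in treated rats. Fitting only the compared groups, or taking the mean of all probes of a gene, gave 1 in the BN response. Median centring gave 1 in the difference between responses. Cy5 alone gave 1 in the SD response (Tpsab1) and 2 in the difference between responses. Leaving out both arrays of control 1, an alternative added after seeing the data, gave 1 in the BN response and 1 in the difference. Leaving out each array in turn gave 1 to 3 in the BN response, 0 to 1 in the difference between responses, 2 to 4 in control rats and 1 to 4 in treated rats. The SD response within slide 1 was added after seeing the data too. The causes were not tested.

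Replicate numbers were tried as a pairing. The replicate block gave 1 member called among treated rats, Fcer1a losing its call (0.81, adjusted p = 0.0535), and left the other counts within 1.5 times of those reported. Same-numbered arrays did not deviate together, so they share only a number.

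Over all 26446 probes, scan day as a term brought the calls of the BN response to 209, against 5757 without it, those of control rats to 384, against 10194, and those of treated rats to 2635, against 5296. With that term the difference between responses had 0 calls, against 2948, and the SD response 254, against 727. Scan day was told apart from group only through the 5 SD procainamide arrays, so this fit has wide errors. Array brightness as a term gave 685 calls in the BN response, 6 in the difference between responses and 2759 in controls. Scaling processed Cy5 to its 75th percentile brought the share of calls that were higher in BN among treated rats to 27.6%, against 41.4% as reported.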
